A study of Mus musculus with 24 samples.

Results

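The genes of the oncostatin M and interleukin-6 receptor pathway were followed in LSK-SLAM cells of young and old mice. Of 10 listed genes (*Osmr*, *Il6st*, *Lifr*, *Il6ra*, *Il11ra1*, *Osm*, *Jak1*, *Jak2*, *Stat3* and *Socs3*), 9 had a row among the 18762 genes of the table of normalized read counts, and *Lifr* was not analysed here. The genes were found by their symbols. The pathway itself was chosen by the values of *Osmr* in the comparison of old with young mice, where it was among the genes higher in old mice, so that the age difference of the 9 genes is given below as a description without a test. All 9 genes had a mean normalized read count of at least 10 and entered the fits over 12354 genes.

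Cytokines of this family signal through receptors that share gp130, the protein encoded by *Il6st*. Oncostatin M, the product of *Osm*, binds a receptor made of gp130 and the subunit encoded by *Osmr*, while interleukin-6 and interleukin-11 first bind the specific subunits encoded by *Il6ra* and *Il11ra1* and then engage gp130. The receptors carry Janus kinases such as JAK1 and JAK2, which phosphorylate the transcription factor STAT3, and STAT3 induces *Socs3*, whose product binds gp130 and JAKs and limits the signal. In bone marrow this pathway is known for the control of myelopoiesis and of haematopoietic progenitor maintenance during inflammation.

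LSK-SLAM cells are bone marrow cells that lack lineage markers and CD48 and carry Sca-1, c-Kit and CD150, a fraction enriched for haematopoietic stem cells (HSCs). They came from 5 young (4 to 5 months) and 7 old (20 to 22 months) C57BL/6 mice, all WT and without a treatment named in the labels, which are also the source of the ages. From 15000 sorted cells per sample, 300 pg of RNA without ribosomal RNA went into each library. The labels list 2 samples per mouse, for which 1 column of values was deposited, so that a mouse is 1 replicate. Each label also ends in A (2 young and 4 old mice) or B (3 young and 3 old mice), a letter whose meaning is not given in the sources used here. A normalized read count is the number of reads of a gene per M reads of the library (M stands for 1000000) after the authors' scaling, and whole reads could be recovered from every mouse.

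Recovered reads ranged from 2.05 to 5.12 M in young and from 0.861 to 5.00 M in old mice, with medians of 2.12 M for letter A and 4.53 M for letter B. At this depth, 3 reads corresponded to a normalized read count between 0.583 and 3.69. The 7 marker genes of LSK-SLAM cells summed to 1376 in old mouse 5, to 2083 in old mouse 7 and to between 2750 and 5081 in the other mice, and none of the 7 was absent. The 8 myeloid marker genes summed to between 237 and 571 in young mice and between 180 and 2227 in old mice, where old mice 5, 6 and 7, all with letter A, had the highest sums (969, 2227 and 647). The age differences of all 9 genes are therefore also given without them. The 3 markers of multipotent progenitors (*Cd34*, *Flt3* and *Cd48*) summed to between 167 and 293 in young mice and between 98.0 and 139 in old mice, so that every old mouse was below every young mouse, although neither of the 2 that were tested passed for age in limma. In bulk RNA, fewer cells of a type and less RNA per cell cannot be told apart.

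The promoters of *Osmr*, the gene with the largest age difference of the pathway, and of *Socs3*, the feedback target of STAT3, are shown because both the receptor and the target stood higher in old mice on average. Each runs from 250 bases before to 50 bases after the transcription start in RefSeq (GRCm38.p6, mm10), is on the minus strand and is written 5′ to 3′. The *Osmr* window lies at chr15:6874264-6874563 and the *Socs3* window at chr11:117969317-117969616. Both lie inside the GENCODE spans of these genes, whose 5′ ends are at 6874969 and 117970047. The RefSeq starts used here are thus downstream of the GENCODE 5′ ends. Capitals mark the palindrome TTCNNNGAA, the core of the element that STAT factors bind, which reads the same on both strands and was searched as such.

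Osmr: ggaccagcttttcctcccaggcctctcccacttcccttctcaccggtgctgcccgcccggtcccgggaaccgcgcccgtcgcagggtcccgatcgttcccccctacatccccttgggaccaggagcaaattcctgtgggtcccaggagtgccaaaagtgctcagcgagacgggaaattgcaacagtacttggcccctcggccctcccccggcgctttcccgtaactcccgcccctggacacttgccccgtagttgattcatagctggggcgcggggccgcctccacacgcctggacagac

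Socs3: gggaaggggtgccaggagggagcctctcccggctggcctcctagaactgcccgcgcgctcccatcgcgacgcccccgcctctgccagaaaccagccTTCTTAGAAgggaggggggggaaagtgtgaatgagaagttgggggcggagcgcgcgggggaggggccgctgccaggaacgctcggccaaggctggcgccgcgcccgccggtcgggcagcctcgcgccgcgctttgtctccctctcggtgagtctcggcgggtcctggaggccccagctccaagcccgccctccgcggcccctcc

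The palindrome occurred in the *Socs3* window, where it starts 154 bases upstream of the transcription start, and in none of the other 10 promoters that RefSeq gave for 9 of the listed genes (*Lifr* and *Il11ra1* have 2 each and *Osm* has none in this set). It was present in 8.30% of 32851 mouse promoters of the same length. A match of these letters does not show that a factor binds there, and its absence from a window says only that the letters are not in it. The *Osmr* and *Socs3* windows held 22 and 31 CpG dinucleotides, against a median of 7 over all promoters. Those of *Il6st*, *Il6ra*, *Jak1*, *Jak2* and *Stat3* held 33, 25, 29, 44 and 15. The windows of *Lifr* held 53 and 4, and those of *Il11ra1* held 7 and 3.

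*Osmr* (chr15:6813577-6874969, GRCm38, minus strand), the subunit that gives the receptor its specificity for oncostatin M, had normalized read counts of 23.0, 25.0, 21.2, 15.9 and 20.3 in young mice 1 to 5. In old mice the lowest value was 48.3, the median 69.4 and the highest 97.3. Every old mouse was above every young mouse, and the spread among old mice was wider than among young mice. The means of 21.1 ± 3.42 (SD, n = 5) for young and 69.2 ± 19.5 (SD, n = 7) for old mice gave a ratio of 3.28, and the log2 fold change on the log2(value + 1) scale was 1.64 ± 0.23 (SE). The difference rested on 52 to 357 reads per mouse. It was 1.41 within letter A and 1.81 within letter B. Old mice 2, 3 and 4, which had the lowest myeloid marker sums of all 12 mice (198, 180 and 210), had *Osmr* values of 48.3, 97.3 and 69.4. The summed markers of multipotent progenitors were also without overlap between the ages. The part of these, of the myeloid or of any other marker list in the difference of *Osmr* was not tested.

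**Figure D1:**
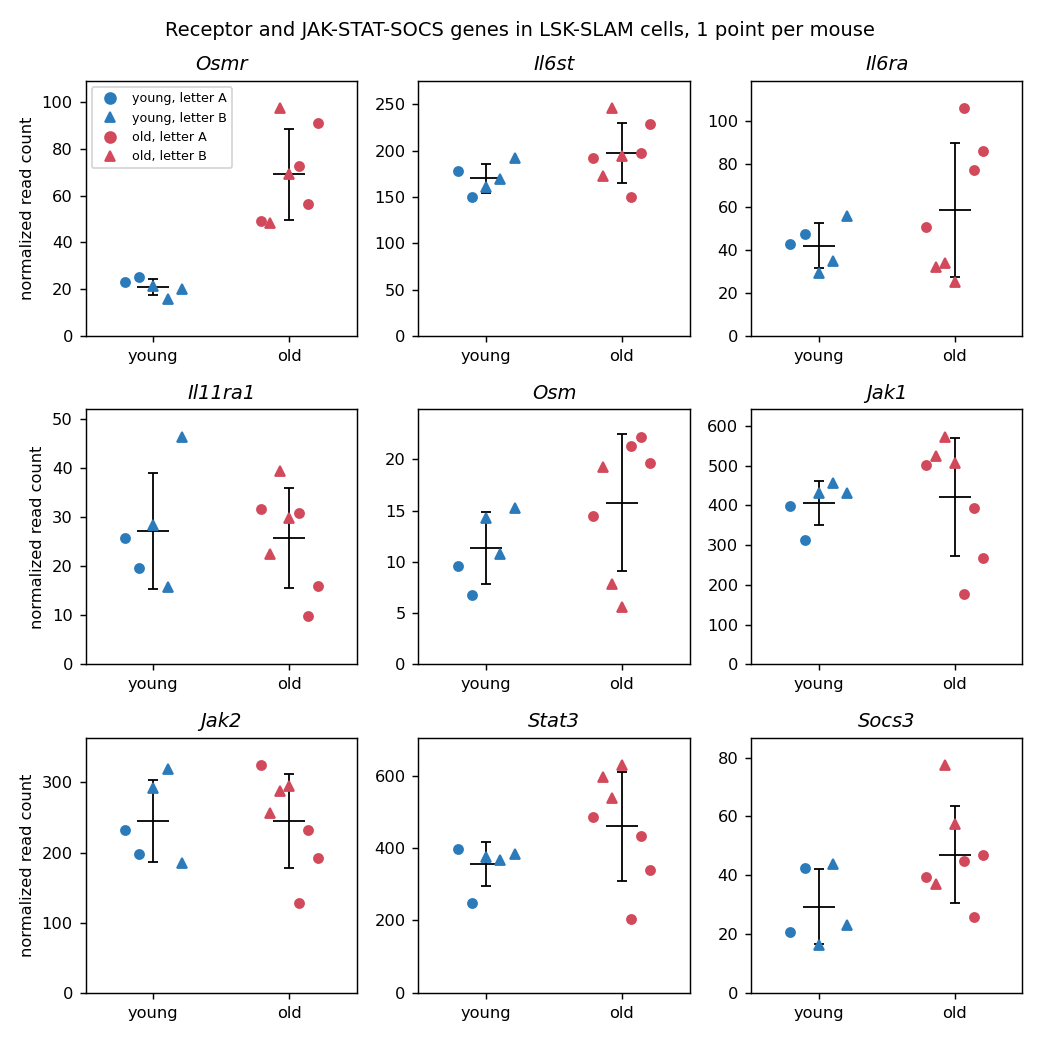
Normalized read counts of the 9 genes in young and old mice, 1 point per mouse, with circles for letter A, triangles for letter B, and the mean ± SD in black. The groups of *Osmr* do not overlap (highest young value 25.0, lowest old value 48.3), while those of the other 8 genes do.

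*Il6st*, the shared signalling subunit gp130 (chr13:112464070-112510086), was the most even gene of the pathway between mice. Its normalized read counts were 178.6, 150.5, 161.3, 169.7 and 191.8 in young mice 1 to 5, and ranged from 150.0 over a median of 194.6 to 245.8 in old mice. The groups overlapped, with 5 of the 7 old mice above every young mouse and old mouse 5 just below the lowest young mouse. The mean was 170 ± 15.9 in young and 197 ± 32.2 in old mice, a ratio of 1.16.

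Because *Osmr* and *Il6st* encode the subunits of the same receptor, their levels were set against each other per kb of exon. The *Il6st* level per kb exceeded that of *Osmr* by 9.06 ± 1.97 times in young mice (6.57 to 11.7) and by 3.26 ± 0.744 times in old mice (2.25 to 4.26). The ratio was thus lower in all 7 old mice than in any young mouse, which follows from the values of *Osmr* that chose the pathway. *Il6st* stayed above *Osmr* per kb in all 12 mice.

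*Il6ra*, the subunit that binds interleukin-6 (chr3:89864059-89913196), had normalized read counts of 42.6, 47.6, 29.2, 34.9 and 55.5 in young mice 1 to 5. In old mice it ranged from 25.3 over a median of 50.6 to 105.8. The old mice fell on both sides of the young ones: old mice 5, 6 and 7 stood above every young mouse with 105.8, 77.0 and 86.1, and old mouse 4 stood below all of them. The mean was 42.0 ± 10.3 in young and 58.7 ± 31.1 in old mice, and the log2 fold change was 0.33 ± 0.33 (SE), with 0.76 in letter A and -0.34 in letter B. An antisense gene, *Gm42809*, overlaps *Il6ra* and shares 2.29% of its words of 50 bases, so that reads of the pair cannot be told apart where the strand was not used.

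*Il11ra1*, the subunit that binds interleukin-11 (chr4:41699989-41769474), had normalized read counts of 25.8, 19.7, 28.5, 15.7 and 46.4 in young mice and ranged from 9.92 over a median of 29.9 to 39.5 in old mice. The groups overlapped widely, and the means were 27.2 ± 11.8 and 25.8 ± 10.2. These values are uncertain, since 46.3% of the 50-base words of *Il11ra1* are shared with *Il11ra2* and *Gm13305*, both listed at 0 in every mouse.

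*Osm*, the ligand oncostatin M (chr11:4236420-4241026), was low, at 14 to 76 reads per mouse. Its normalized read counts were 9.64, 6.73, 14.3, 10.8 and 15.3 in young mice 1 to 5, and ranged from 5.64 over a median of 19.2 to 22.2 in old mice. The groups overlapped. Old mice had 14.5 to 22.2 in letter A and 7.83, 5.64 and 19.2 in letter B, so that the letters overlapped as well. The mean was 11.4 ± 3.49 in young and 15.8 ± 6.66 in old mice, and the log2 fold change was 0.36 ± 0.43 (SE), with 1.15 in letter A and -0.44 in letter B.

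*Jak1* (chr4:101152367-101265282) and *Jak2* (chr19:29251828-29313080), the receptor-associated kinases, had like means at both ages over all mice, which rested on old mice 5, 6 and 7. Without these the log2 fold change was 0.38 for *Jak1* and 0.27 for *Jak2*, against -0.04 and -0.02 over all mice. Normalized read counts of *Jak1* were 398.8, 312.5, 431.5, 455.4 and 431.3 in young mice and ranged from 176.0 over a median of 501.2 to 572.6 in old mice. Those of *Jak2* were 232.1, 198.1, 292.2, 318.7 and 184.8 in young mice and ranged from 128.7 over a median of 257.1 to 324.5 in old mice. Old mice 1 to 4 lay above every young mouse in *Jak1* and old mice 5, 6 and 7 did not, while *Jak2* overlapped throughout. The ratio of the old to the young mean was 1.04 for *Jak1* (406 ± 56.0 and 420 ± 148), while *Jak2* had equal means (245 ± 58.4 and 245 ± 67.4).

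*Stat3*, the transcription factor downstream of these kinases (chr11:100885098-100939540), had normalized read counts of 398.5, 248.5, 375.0, 367.9 and 384.3 in young mice 1 to 5. In old mice it ranged from 202.8 over a median of 486.8 to 628.5. Old mice 1, 2, 3, 4 and 6 lay above every young mouse, and old mouse 5 lay below all of them. The mean was 355 ± 60.5 in young and 460.5 ± 150 in old mice, and the log2 fold change was 0.31 ± 0.27 (SE). Within letter B the ages did not overlap, with 367.9 to 384.3 in 3 young and 537.6 to 628.5 in 3 old mice (log2 fold change 0.64 ± 0.16, SE). The ages of *Jak1* did not overlap within letter B either (431.3 to 455.4 in young and 507.4 to 572.6 in old mice). How many of all genes share this pattern within letter B was not counted. Within letter A the log2 fold change of *Stat3* was 0.14 ± 0.41 (SE). *Stat5a* overlaps *Stat3* on the opposite strand, and 0.555% of the 50-base words of *Stat3* are shared with other genes.

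*Socs3*, the feedback inhibitor of gp130 signalling (chr11:117966079-117970047), had normalized read counts of 20.8, 42.3, 16.3, 44.0 and 23.2 in young mice 1 to 5. In old mice it ranged from 26.0 over a median of 45.0 to 77.4. Young mice fell into a low set of 3 and a high set of 2 that reached into the old range, and 4 of the 7 old mice were above every young mouse. The mean was 29.3 ± 12.9 in young and 47.0 ± 16.5 in old mice, a ratio of 1.60, and the log2 fold change of 0.70 ± 0.30 (SE) was 0.35 within letter A and 1.07 within letter B. It was the second largest age difference of the pathway.

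In the fit over all genes, *Osmr* was the gene of the 9 with an adjusted p under 0.05 for age, where 13 of 12354 genes (0.105%) passed. It was also the gene of the 9 whose old values were all above its young values, a pattern of 36 of 12354 genes (0.291%). Both counts use the comparison by which the pathway was chosen, and nothing is read from them. The log2 fold changes of the 9 genes had a median of 0.31, with 6 above and 3 below 0, against a median of -0.02 over all genes. Without old mice 5, 6 and 7, the log2 fold change was 1.56 for *Osmr*, 0.87 for *Socs3*, 0.68 for *Stat3* and 0.23 for *Il6st*. Leaving them out turned the direction of 5 genes, to 0.38 for *Jak1*, 0.27 for *Jak2*, 0.24 for *Il11ra1*, -0.25 for *Il6ra* and -0.04 for *Osm*.

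**Figure D2:**
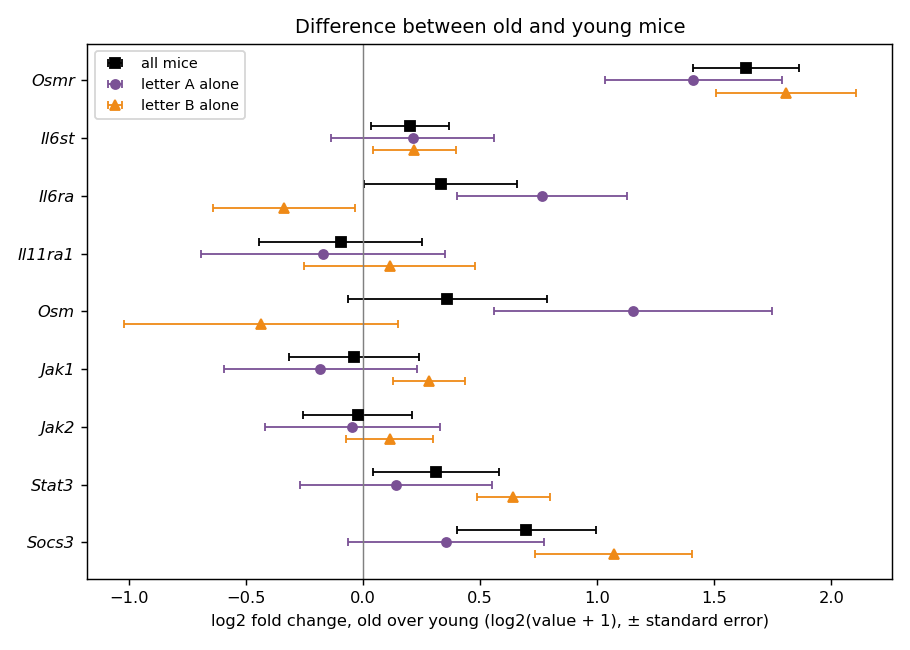
Log2 fold changes of old over young mice on the log2(value + 1) scale with their standard errors, for all 12 mice (squares), for letter A alone (circles) and for letter B alone (triangles). *Osmr* lies between 1.41 and 1.81 in all 3 sets, while *Il6ra* and *Osm* lie above 0 in letter A and below 0 in letter B. *Jak1*, *Jak2* and *Il11ra1* lie below 0 in letter A and above 0 in letter B.

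The order of the levels was compared per kb of exon, as normalized read count per kb, averaged over 12 mice. The kinases and STAT3 came first, with 57.3 for *Jak1*, 48.7 for *Jak2* and 43.7 for *Stat3*, followed by 16.8 for *Il6st* and 13.7 for *Socs3*. The ligand and the specific receptor subunits came last, with 6.13 for *Osm*, 5.99 for *Il6ra*, 5.90 for *Il11ra1* and 4.06 for *Osmr*. Among neighbours in this order, the mean difference was larger than its spread over mice in 2 cases, with *Stat3* above *Il6st* in 12 of 12 mice and *Socs3* above *Osm* in 10 of 12. *Osmr* had the lowest mean of the 9 genes at both ages, with 1.74 ± 0.282 per kb in young mice, where the next was *Il6ra* at 4.86, and 5.71 ± 1.61 in old mice, where *Il11ra1* was at 5.76, *Il6ra* at 6.79 and *Osm* at 6.94.

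**Figure D3:**
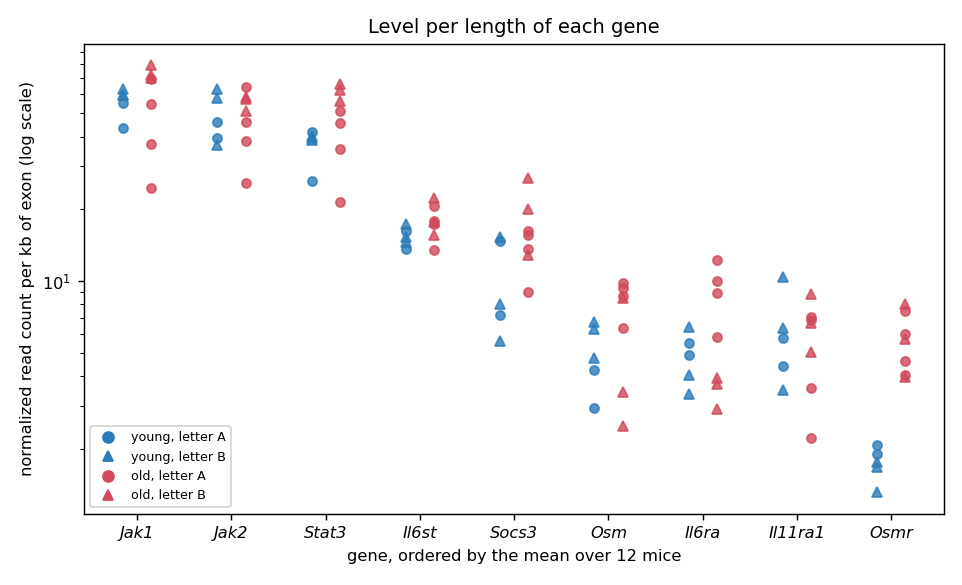
Normalized read count per kb of exon on a log scale for each gene, ordered by the mean over 12 mice, with 1 point per mouse. *Stat3* lies above *Il6st* in 12 of 12 mice, and *Osmr* has the lowest mean at both ages.

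The letter of the labels played no part in the choice of the genes, and the difference between letters, with age as a covariate, was therefore tested in the fit over all genes (limma, Benjamini-Hochberg adjusted p). All libraries with letter A had fewer recovered reads (0.861 to 3.11 M) than those with letter B (3.23 to 5.12 M), so that letter and recovered depth cannot be told apart by design. After thinning all mice to the reads of the shallowest, 1 of the 9 genes passed, *Il6ra*, while 3832 of 12354 genes passed, against 4462 without thinning. *Jak1* then had a difference of 0.55 (adjusted p = 0.0532) and *Stat3* of 0.54 (adjusted p = 0.0626). Without thinning, passing genes numbered 3 of 9, of which 1 was lower and 2 were higher in letter B, against 36.1% of 12354 genes. The share of the pathway is near that background. *Il6ra* had a median of 63.8 in 6 mice with letter A (42.6 to 105.8) and of 33.0 in 6 mice with letter B (25.3 to 55.5), with overlap, and fell by 0.87 ± 0.24 (SE) on the log2 scale from letter A to B (adjusted p = 0.00801). *Jak1* had medians of 353 and 481 (176.0 to 501.2 and 431.3 to 572.6) and was 0.59 ± 0.22 higher in letter B (adjusted p = 0.0372). *Stat3* had medians of 368 and 461 (202.8 to 486.8 and 367.9 to 628.5) and was 0.55 ± 0.21 higher (adjusted p = 0.0452).

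The other 6 genes did not pass for letter. *Osmr* had a difference of -0.09 ± 0.23 (SE, adjusted p = 0.781) and *Il6st* of 0.09 ± 0.17 (adjusted p = 0.711). For *Jak2*, *Il11ra1*, *Socs3* and *Osm* the differences were 0.36 ± 0.20, 0.44 ± 0.31, 0.21 ± 0.28 and -0.28 ± 0.40. A test of whether the age difference depended on letter gave adjusted p = 0.9998 for *Il6ra* and *Osm* in limma. Their age differences were above 0 in letter A and below 0 in letter B. Those of *Jak1* (-0.18 in A and 0.28 in B), *Jak2* (-0.05 and 0.11) and *Il11ra1* (-0.17 and 0.11) had the reverse signs. No gene of the 9 passed the test, where 2 of 12354 genes did. Of the 9, *Il6ra* and *Osm* were the genes with an unadjusted p under 0.05 (0.0228 and 0.0484), against 3.43% of all genes.

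The 3 differences by letter moved with old mice 5, 6 and 7. These mice had the highest *Il6ra*, and with young mouse 2, old mice 5 and 7 had the lowest *Jak1* and *Stat3* of all 12. Their recovered reads numbered 1.13, 2.20 and 0.861 M. Without the 3 mice the letter difference was -0.42 for *Il6ra* (adjusted p = 0.306), 0.23 for *Jak1* (adjusted p = 0.370) and 0.26 for *Stat3* (adjusted p = 0.321), and none passed. Among old mice alone *Il6ra* passed (-1.32, adjusted p = 0.00477) and among young mice it did not (-0.22, adjusted p = 0.731). Over all genes, 10.5% were called higher and 25.6% lower in letter B. Called lower were 3 of 6 tested myeloid markers, 4 of 7 stromal and endothelial, 3 of 6 erythroid, 2 of 3 B cell and 1 of 2 multipotent progenitor markers, and called higher were 3 of 7 LSK-SLAM markers. The summed stromal and endothelial markers separated the letters (228 to 392 in A and 132 to 219 in B), as did the T cell markers (19.0 to 71.8 and 2.28 to 14.7). The 3 T cell markers were low, at no more than 50 reads in any mouse, and 0 of them were tested. The part of these cell types in the differences of *Il6ra*, *Jak1* and *Stat3* was not tested.

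The calls of *Jak1* and *Stat3* were also lost on leaving out old mouse 2, 3, 4, 5 or 7 or young mouse 2, 3 or 4, with adjusted p-values of 0.0516 to 0.0916 for *Jak1* and 0.0602 to 0.127 for *Stat3*, while that of *Il6ra* was kept without any single mouse. Rescaling by median ratios moved the median letter difference of all genes from -0.09 to 0.24. Relative to that median, *Il6ra* differed by -0.78 and -0.82, *Jak1* by 0.68 and 0.65, and *Stat3* by 0.64 and 0.61 under the 2 scalings.

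**Figure D4:**
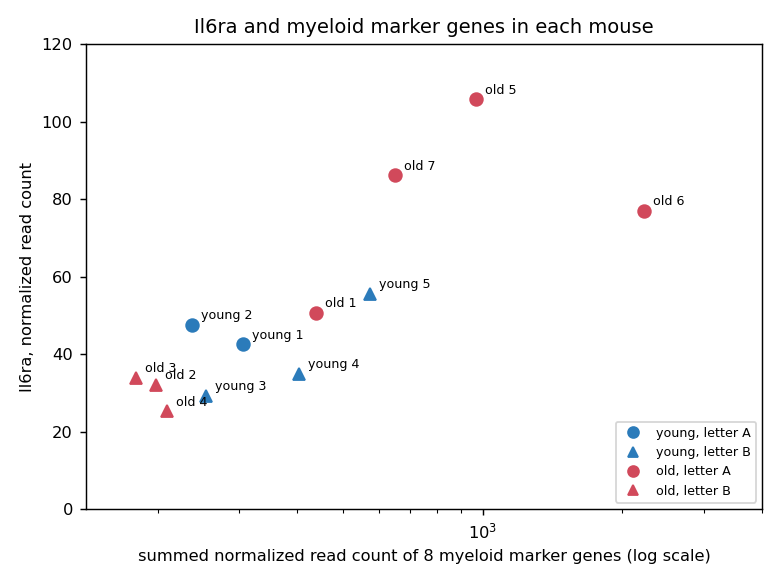
Normalized read count of *Il6ra* against the summed normalized read count of 8 myeloid marker genes (log scale), 1 labelled point per mouse. Old mice 5, 6 and 7 stand apart with the highest values of both, *Il6ra* between 77.0 and 105.8 and marker sums between 647 and 2227.

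The rest of the pathway was followed in a list of 52 other ligands, receptors, kinases, STATs, inhibitors, adaptors and STAT3 targets, of which 48 had a row and 41 were tested. The list was chosen with earlier results of these data known, so that its shares and directions for age are a description. For age, 0 of 41 passed the adjusted p in limma, and 0 passed in edgeR or DESeq2 on recovered reads. In limma 2 (4.88%) had an unadjusted p under 0.05, near the 3.95% of all genes, and nothing is read from these 2. Both were STAT3 targets higher in old mice, *Bcl3*, an NF-κB cofactor, with a log2 fold change of 0.82 ± 0.36 (SE), and *Bcl6*, a transcriptional repressor, with 0.74 ± 0.25 (SE), the latter named after its values were seen. Within letter B alone 1 of the list passed, *Bcl3* (1.23, adjusted p = 0.0385), against 0.974% of all genes. The log2 fold changes had a median of -0.02, as over all genes, with 20 above and 21 below 0. With letter as a covariate the median was 0.05, against -0.05 over all genes, with 25 above and 16 below 0. In that limma fit 0 of 41 passed. An unadjusted p under 0.05 was found for 5 (12.2%), all higher in old mice, against 5.20% of all genes.

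By role, 8 of 11 STAT3 targets had a positive age difference (median 0.23), and 9 of 12 inhibitors had a negative one (median -0.08), with none passing the test, while 5892 of 12354 genes were positive. Within letters A and B, 10 and 7 of the 11 targets were positive and 6 and 7 of the 12 inhibitors were negative, so that the count of inhibitors was not held within a letter. The ligands *Ctf1* (cardiotrophin-1) and *Il27* had log2 fold changes of 0.65 ± 0.33 and 0.71 ± 0.47 (SE), and the receptor *Il27ra*, which pairs with gp130, of 0.35 ± 0.18. *Cish*, a SOCS family inhibitor induced by STAT5, had -0.39 ± 0.21. The kinase *Tyk2*, *Stat5a* and the adaptor *Shc1* had -0.11 ± 0.17, -0.16 ± 0.22 and -0.24 ± 0.26. The genes with the highest mean normalized read count over 12 mice in their roles were the survival gene *Mcl1* (620) among STAT3 targets, the kinase *Jak3* (282), *Stat5b* (221), the phosphatase *Ptpn6* (197) among inhibitors and the exchange factor *Sos1* (176) among adaptors, and none of these passed for age.

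For letter, 12 of 41 passed in limma, 11 higher and 1 lower in letter B, beside the 36.1% of all genes named above. Without old mice 5, 6 and 7, 6 of 41 passed, all higher in letter B, against 7.50% of all genes (3.55% higher). After rescaling by median ratios, 21 were higher and 1 was lower, against 47.6% of all genes (28.3% higher). The lower gene was *Lif*, a ligand of the LIF receptor (-1.45, adjusted p = 0.00809). The higher genes with the largest differences were the STAT3 targets *Cebpb* (1.33, adjusted p = 0.00156), *Pim1* (1.17, adjusted p = 7.47e-05) and *Myc* (0.87, adjusted p = 0.00508), and *Stat5b* (0.85, adjusted p = 0.00368). *Jak3* (0.83), *Shc1* (0.67), *Stat5a* (0.60) and *Ptpn6* (0.53) also passed. All 6 other STATs had a positive letter difference and 4 of them passed, while 10.5% of all genes were called higher. Without old mice 5, 6 and 7, 0 of the 6 STATs passed and 1 had a negative difference. Of the genes named above, *Lif*, *Stat5b*, *Stat5a* and *Ptpn6* did not pass without old mice 5, 6 and 7 (adjusted p of 0.196, 0.0659, 0.0948 and 0.220). *Shc1* did not pass without old mouse 2 (adjusted p = 0.0541). *Ptpn6* was lost on leaving out old mouse 2, 4, 5 or 7 or young mouse 2, 3 or 4 (adjusted p between 0.0520 and 0.200).

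The genes whose log2 levels ran most like *Osmr* over the 12 mice were ranked by Pearson's r, which for a gene that differs with age is carried by the age groups. They were *Ramp2* (r = 0.92), a modulator of calcitonin family receptors, *Matn4* (0.91), a matrix protein, *Mab21l2* (0.91), *Abca4* (0.89), a lipid transporter, and *Tmem215* (0.89). After the mean of each age and letter was removed, r was 0.38 for *Ramp2* and between 0.71 and 0.78 for the other four. Of the pathway itself, *Socs3* was at rank 188 (r = 0.64) and *Il6st* at rank 332 (r = 0.57), and the remaining genes were at rank 1927 or beyond. After centring, r was 0.35 for *Socs3*, 0.47 for *Il6st*, 0.41 for *Il6ra*, -0.45 for *Stat3*, -0.46 for *Jak1* and -0.40 for *Jak2*. The mean normalized read count of *Matn4* was 19.4 in young and 41.7 in old mice, and that of *Tmem215* 11.7 and 31.6.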

How the data were processed

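RNA-seq of sorted LSK-SLAM cells was analysed from 1 deposited table of normalized read counts, a signal for which the authors scaled the reads of each gene to library size and a normalization factor, per 1000000. The submitters' processing notes name FastQC 0.11.8, STAR 2.5.4b, edgeR 3.24.3 and the build mm10, while the counting tool and annotation are not given in the sources used here. A second deposited table holds the authors' own comparison of the ages (log2 fold changes, log2 CPM, likelihood ratios, p-values and FDR) and was not used. The labels number 5 young and 7 old replicates, and the study's legends count biological replicates. Each is called a mouse here, and whether one pooled several mice is not given in the sources used here, so that p-values measure the spread between these samples.

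Each value was a whole number of steps of its mouse, where a step is the value of 1 read (tolerance 0.1 of a step), so that reads were recovered. Recovered reads ranged from 0.861 to 5.12 M (M, 1000000) per mouse, so that 3 reads correspond to a value of 0.583 to 3.69. They are the reads of the genes in the deposited values, and the paper states a higher number of sequenced reads. Values were tested as log2(value + 1) with lmFit and eBayes with trend in limma 3.58.1 (R 4.3.3) over 12354 genes with a mean of at least 10, with Benjamini-Hochberg adjustment at 0.05. This design was written for normalized values and kept after whole reads had been recovered, with edgeR 4.0.16 and DESeq2 1.42.0 on those reads as alternatives. Age was fitted without a covariate, letter with age as a covariate, and their interaction with both. Further alternatives were other minimum means, no trend, a replicate block, rescaling by median ratios, thinning, either letter or age alone, and leaving out each mouse in turn. Leaving out old mice 5, 6 and 7 together, and thinning for age, were chosen after seeing the data.

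The pathway genes, the list of 52 related genes and the marker lists were chosen with earlier results of these data known. Named genes of the list are, for each role, the gene with the highest mean and the gene with the largest age difference, and the 5 with the largest letter difference among those passing. Gene positions, exon lengths and shared words of 50 bases came from GENCODE vM21, where 18745 of 18762 identifiers were found, and promoters from RefSeq. The fits had been run on simulated counts with known changes. Pairs of mice of 1 age differed by more than sampling noise (chi-square per gene 6.50 to 85.7 for 31 pairs), and a mouse is 1 replicate throughout.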

Additional observations from a re-analysis of the deposited data

Results flagged for a closer look

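In a test for a value far from the rest of its age group (Dixon's test, which flags about 1 in 20 groups by chance), 2 of 52 groups stood out, against 2.6 expected. *Stat3* in young mouse 2 (letter A) had a normalized read count of 248.5, while the other 4 young mice lay between 367.9 and 398.5. *Mcl1*, a survival gene of the BCL2 family and a STAT3 target, was at 243.1 in old mouse 5 (letter A), while the other 6 old mice lay between 560.8 and 765.8. Old mouse 5 also had the lowest *Jak1*, *Jak2* and *Stat3* of the 12 mice, and the lowest sum of LSK-SLAM marker genes (1376).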

How the results depend on the processing

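The age values of the 9 genes come from the comparison that chose the pathway, and nothing is read from their stability. Of these genes, 1 passed for age, against 0 in letter A alone and 2 (*Osmr* and *Stat3*) in letter B alone, and 1 on leaving out any mouse. For letter, 3 passed, against 1 each with edgeR on recovered reads, a minimum mean of 20, no trend, old mice alone and thinned reads, 0 in young mice alone and without old mice 5, 6 and 7, 5 after rescaling by median ratios, and 1 to 3 on leaving out 1 mouse. Of the related list, 0 passed for age, against 1 in letter B alone and 0 on leaving out any mouse. Over all genes, 13 passed for age, against 57 with DESeq2, 37 with letter as a covariate, 3 in letter A alone, 98 in letter B alone, 2 without trend, 49 without old mice 5, 6 and 7, 5 after rescaling, and 3 to 32 on leaving out 1 mouse (3 without old mouse 1, 2 or 3 or young mouse 3 or 4, 4 without young mouse 5, 6 without young mouse 1, 7 without old mouse 6 and 32 without old mouse 5). The age difference of *Tyk2* was 0.094 in letter B alone, and that of *Stat5a* 0.0033 in letter B alone and 0.14 without old mice 5, 6 and 7. For letter, 4462 passed (1301 higher and 3161 lower in letter B), against 2232 with a minimum mean of 20, 843 without old mice 5, 6 and 7, 2913 in old and 459 in young mice alone, and 2817 (without young mouse 2) to 5014 on leaving out 1 mouse. After rescaling, 3356 were higher and 2288 lower, and with thinned reads 3832 passed. Replicate numbers pair different animals, and deviations of same-numbered mice correlated between -0.559 and 0.615, with 2 of 5 young mice closest to their own number, so that they share only a number. The replicate block, which covers replicates 1 to 5, gave 19 genes for age (8 without it in the same mice) and 2950 for letter, where *Il6ra* had -0.73 (adjusted p = 0.115), *Cebpb* 0.84 (adjusted p = 0.151) and *Shc1* 0.68 (adjusted p = 0.0633). Fewer mice are fitted when mice are left out, and the cause of the other changes was not tested. At 13 to 158 reads per mouse for *Il11ra1* and 14 to 76 for *Osm*, counting error is wide for both genes.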
